A study of Drosophila melanogaster with 90 samples.

Results

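Heads of virgin female Drosophila melanogaster were compared between the middle of the day and the morning. The late group held the 5 virgin libraries frozen at 5 and 6 h and the early group the 6 virgin libraries frozen at 0.5 and 1 h, so the comparison rests on 11 of the 90 samples of the series. All 11 came from Canton-S females that had not mated, kept at 25 °C on yeast and glucose food in a cycle of 12 h of light, with lights on at 8 AM. Times count from the matings of parallel females, which took place between 8 and 11 AM, so each nominal time covers a span of clock hours. The series also held Canton-S females mated to wildtype males and females mated to males null for Sex Peptide, the seminal peptide that drives much of the female response to mating, at the same times. The whole series was carried out 3 times, as repeats A, B and C, and repeat C of virgins at 6 h was not analysed here. The labels call the repeats biological replicates but do not give the number of heads in each library. The comparison shows how the RNA of a virgin head differed between these times, with no mating. Time of day and time elapsed since the matings run together in it and cannot be told apart.

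The circadian clock of the fly is a feedback loop. The proteins CLK and CYC switch on per, tim, vri, Pdp1 and cwo. PER with TIM later holds CLK and CYC back, while VRI and PDP1 act on the Clk gene. Transcripts of per, tim and vri build up through the day, Clk runs in the opposite phase, and photoreceptors, glia and fat body carry such clocks as well as neurons do.

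The 11 libraries held from 15411046 to 20979668 counts each, which limits counting error only. Levels are in CPM, the counts of a gene relative to the total of its library, with TMM scaling, a correction of library size. A gene is called where edgeR's quasi-likelihood test gave an adjusted p (Benjamini-Hochberg over all 9024 tested genes) under 0.05. Changes are late minus early on the log2 scale, with their standard error (SE). The first principal component of the 11 libraries held 29.3% of the variance and put every late library above every early one. The second held 15.9%, and its lowest scores, -11.5 and -11.3, were those of the 0.5 h and 1 h libraries of repeat C. These early libraries of repeat C stood apart in other ways. Their TMM factors were 0.866 and 0.878, against 0.945 to 1.03 in the other 9. Their mean level over 6 fat body marker genes was 9.68 and 9.44 log2 CPM, against 8.42 to 8.89 in the other 9. Counts of called genes are therefore also given without them, a choice made after seeing the data.

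The labelled tissue was checked against marker genes. The mean level of 6 photoreceptor markers was 11.46 ± 0.04 log2 CPM late and 11.45 ± 0.12 early (SD, n = 5 and 6). That of 6 neuron markers was 8.32 ± 0.10 late and 8.30 ± 0.08 early. None of the listed neuron, glia, photoreceptor, pigment or cone cell and muscle markers was called. The mean of 4 hemocyte markers was lower in all 5 late libraries, at 5.24 to 5.43 against 5.45 to 5.74 log2 CPM (exact two-sided permutation test, p = 0.00433, and 0.0563 adjusted over 13 library measures). Among them Hml, a clotting protein of hemocytes, fell by 0.39 ± 0.10 (adjusted p = 0.00925). The oenocyte marker Cyp4g1 was at or near 0, with no more than 0.104 CPM in any library. In whole heads, fewer cells of a type and less RNA per cell cannot be told apart.

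At 5 and 6 h the clock genes per, tim and vri stood at 2.77 to 2.93 times their level of the first hour, Clk was lower, and several Bomanin immune peptide genes were higher. No Bomanin call held without repeat B. Genes of fatty acid synthesis, of the pentose phosphate and glycerol pathways and of protein entry into the secretory pathway were among those that fell. The Bomanin list, the pentose and glycerol list and a second list of entry genes were drawn up after the values were seen. Of 9024 tested genes, 809 were called (8.96%), of which 328 rose (3.63%) and 481 fell (5.33%). Most changes were small. The median size over called genes was 0.32 and 609 of the 809 were under 0.5, while 41 were over 1. The 5 late libraries lay all above or all below the 6 early ones for 471 genes (5.22%), above for 184 (2.04%) and below for 287 (3.18%). Of these 370 were also called (4.1% of all tested genes), 137 of them higher (1.52%) and 233 lower (2.58%). Within each of the 3 repeats taken alone, 308 of the 328 higher genes were higher late than early, and 477 of the 481 lower genes were lower. These genes were called from the same libraries, so the shared sign is no separate test of them. The lower genes had a median of -0.25 in repeat A, of -0.31 in B and of -0.45 in C. When both early libraries of repeat C were left out, 560 genes were called, 472 of them among the 809. Leaving out a whole repeat moved the count most, to 209 without repeat B, and without the 6 h library of repeat B alone it was 402.

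**Figure D1:**
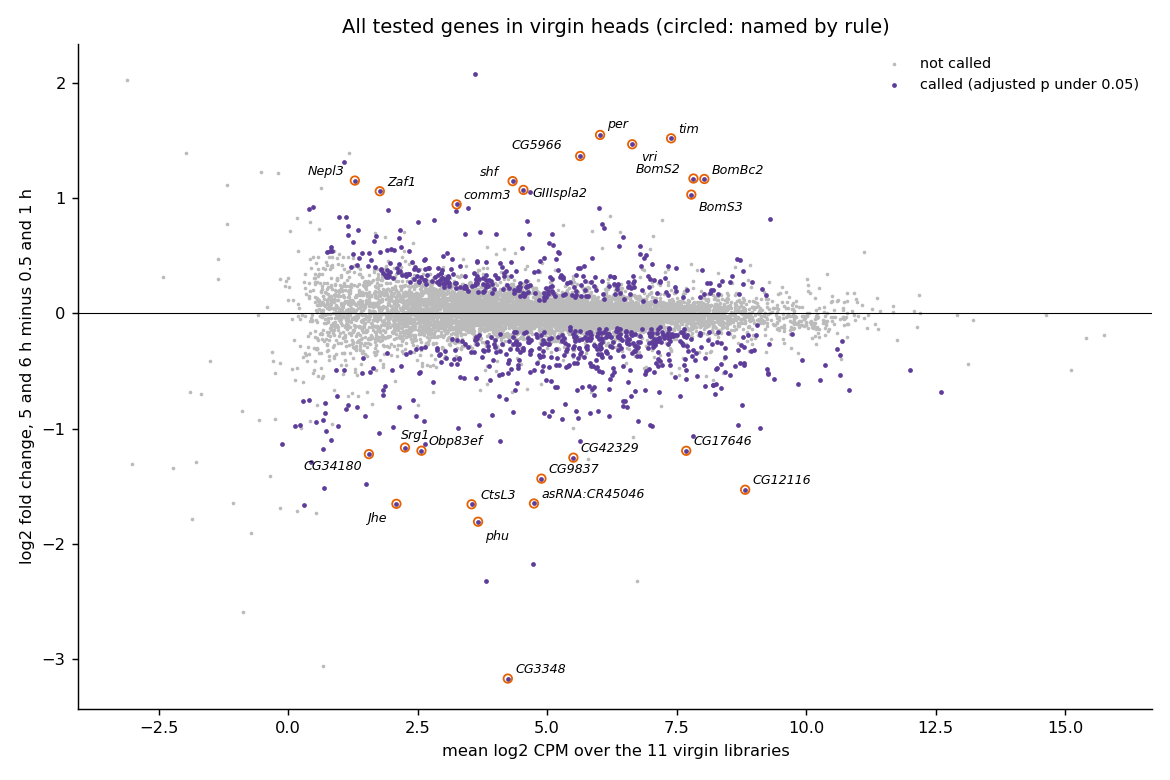
Log2 fold change of each tested gene in virgin heads (late minus early, vertical axis) against its mean log2 CPM over the 11 libraries (horizontal axis), with called genes in purple and the 24 genes named by rule circled. Of the 809 called genes, 481 lie below 0 and 328 above, with CG3348 lowest among the circled genes at -3.17 and per highest at 1.55.

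Of the clock genes, the 3 with the largest rise were those of the per, tim and vri arm. The gene per (FBgn0003068, X:2685580-2692780, plus strand, dm6), which encodes the repressor PERIOD, had 29.5, 40.3 and 51.2 CPM at its lowest, median and highest early library. Late it had 129 CPM in repeat A, 86.2 in repeat B and 111 in repeat C at 5 h, and 129 in repeat A and 130 in repeat B at 6 h. All late values lay above all early ones, and repeat B at 5 h was the lowest of them. The change was 1.55 ± 0.17, or 2.93-fold (adjusted p = 7.07e-10).

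The PER partner tim (FBgn0014396, 2L:3493986-3508119, minus strand) had 90.7, 107 and 121 CPM at its lowest, median and highest early library. Late it had 353, 177 and 304 CPM in repeats A, B and C at 5 h, and 361 and 310 in repeats A and B at 6 h. The groups did not overlap, and repeat B at 5 h again was lowest among the late libraries. The change was 1.52 ± 0.21 (adjusted p = 2.53e-07), and between 1.15 in repeat B and 1.89 in repeat A within repeats. The bZIP repressor gene vri (FBgn0016076, 2L:5288944-5311223, plus strand) ran from 54.9 to 75.7 CPM early. Late it had 196, 119 and 169 CPM at 5 h and 190 and 197 at 6 h, with a change of 1.47 ± 0.17 (adjusted p = 6.27e-09). All 3 genes were called in all 14 fits that left out a library or a repeat.

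The other direct targets of CLK moved less. Pdp1, a bZIP activator of Clk, rose by 0.28 ± 0.09 (adjusted p = 0.0481). Its late libraries overlapped the early ones, at 445 to 631 against 426 to 488 CPM, and the call held in 1 of the 14 fits that left something out. For cwo, a bHLH repressor, the change was 0.20 ± 0.10 and was not called (adjusted p = 0.232). In repeat B at 5 h cwo had 68.4 CPM, against 89.0 to 105 in the other late libraries.

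Clk (FBgn0023076, 3L:7763233-7775603, minus strand), the activator of the loop, had 39.7, 43.8 and 46.8 CPM at its lowest, median and highest early library. Late it had 28.2, 30.5 and 26.9 CPM at 5 h and 27.8 and 26.5 at 6 h. The late libraries all lay below the early ones and were close together. Clk fell by 0.64 ± 0.08 (adjusted p = 9.01e-09), with changes of -0.62 in repeat A, -0.63 in repeat B and -0.66 in repeat C. The blue light photoreceptor gene cry fell by 0.28 ± 0.05 (adjusted p = 0.000247). It had 199 to 226 CPM early and 165 to 204 late, and repeat B at 5 h was the late library that overlapped. The CLK partner cyc, whose RNA is not known to cycle in the fly, had 26.2 to 31.5 CPM early and 27.9 to 31.2 late. Its change was 0.03 ± 0.06 and was not called (adjusted p = 0.792).

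**Figure D2:**
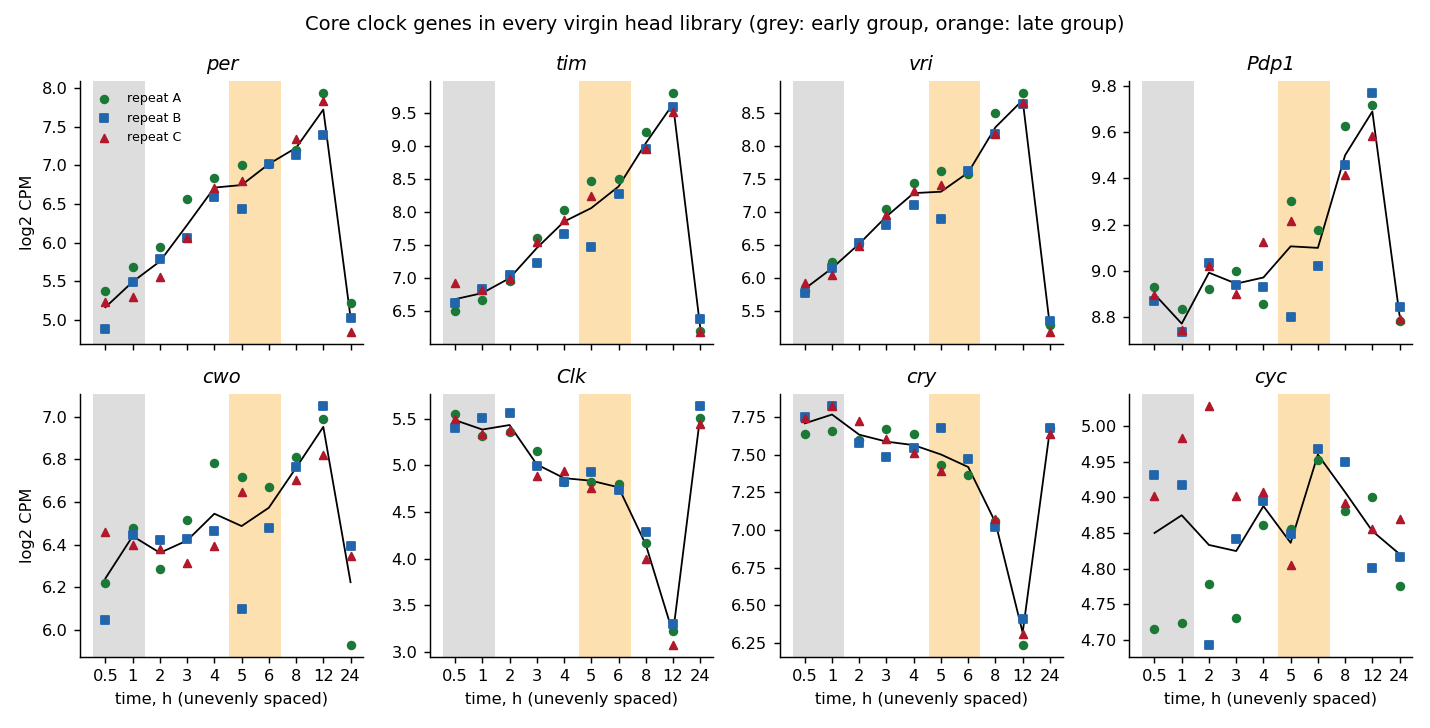
Log2 CPM of the 8 core clock genes in each virgin library (points, coloured by repeat) and the mean at each time (line), with the early group shaded grey and the late group orange on an unevenly spaced time axis. From 0.5 to 6 h per went from a mean of 5.16 to 7.02 log2 CPM and Clk from 5.49 to 4.77, and at 24 h they stood at 5.03 and 5.53.

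Later virgin libraries extend this course. At 12 h per had a mean of 7.72 ± 0.29 log2 CPM (SD, n = 3), tim 9.63 ± 0.15 and vri 8.69 ± 0.09. Clk was at 3.20 ± 0.11 there. At 24 h per was at 5.03 ± 0.19, tim at 6.25 ± 0.10, vri at 5.27 ± 0.08 and Clk at 5.53 ± 0.10 (SD, n = 3). Neighbouring times within each group were compared as well. Between 1 and 0.5 h edgeR called 0 genes, with 472 at an unadjusted p under 0.05 and 0 by DESeq2. The fit with the repeat as a block called 1, PGRP-SC2, at -2.89 (adjusted p = 0.00917). Between 6 and 5 h edgeR called 0 genes, with 314 at an unadjusted p under 0.05. DESeq2 called 1, Cyp4g1, which had almost no counts.

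Clock regulators and outputs were read from other lists. Of 18 genes that modify the clock, 2 rose and 2 fell (11.1% each), with a median of 0.01. Over all genes 3.63% rose and 5.33% fell. Usp8, a deubiquitinase, had 53.2 to 57.5 CPM early, and 102, 75.3, 84.7, 96.6 and 92.6 CPM in the 5 late libraries. It rose by 0.74 ± 0.08 (adjusted p = 4.54e-10). The others that passed were Pdfr, the receptor of the neuropeptide PDF, at -0.20, slmb, a ubiquitin ligase subunit, at -0.12, and Bdbt, a partner of the kinase DBT, at 0.19. None of these 3 passed 0.05 without the early libraries of repeat C (adjusted p = 0.203, 0.139 and 0.0697). Of 11 genes listed as rhythmic outputs in heads, 2 rose (18.2%) and 7 fell (63.6%). The list's median was -0.43, against 0.00 over all genes. Its lower members were CG15093 at -0.93, CG10553 at -0.91, Ugt35B1 at -0.67, Pdh at -0.58, t at -0.51, CG10513 at -0.43 and trpl at -0.36. Slob, a regulator of a potassium channel, rose by 0.33 ± 0.07 (adjusted p = 0.00113), and the other riser of the list was Usp8. The counts of this list were the same without the early libraries of repeat C. Without repeat A 1 rose and 6 fell, and without repeat B or without repeat C 2 rose and 5 fell.

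Of 23 phototransduction genes, 4 fell (17.4%, against 5.33% over all genes) and none rose, with a median of -0.03. Without repeat B none of them was called. The cation channel gene trpl had 1688 to 1919 CPM early and 1601, 1289, 1500, 1411 and 1262 CPM late, with no overlap. It fell by 0.36 ± 0.09 (adjusted p = 0.0031). Its call was lost without repeat B (adjusted p = 0.334). The channel gene trp was at 0.10 and the phospholipase C gene norpA at -0.03, and neither was called. Of 13 rhodopsin and retinoid genes 3 were called (23.1%, against 8.96% over all genes), 2 of them higher. Rh5 rose by 0.41 ± 0.07 (adjusted p = 9.73e-06). It had 122 to 161 CPM early and 198, 192, 173, 192 and 190 CPM late. Rh6, which like Rh5 serves the inner photoreceptor R8, rose by 0.27 ± 0.09 (adjusted p = 0.0381), and its call was lost without the early libraries of repeat C (adjusted p = 0.235). The photoreceptor dehydrogenase gene Pdh fell by 0.58 ± 0.10 (adjusted p = 2.62e-05), from 1407 to 1652 CPM early to 936, 1264, 910, 881 and 994 late. The hydrolase gene t (tan), which frees dopamine and histamine from their beta-alanine conjugates, had 372 to 428 CPM early and 303, 296, 299, 266 and 281 CPM late. It fell by 0.51 ± 0.05 (adjusted p = 6.60e-12).

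The other genes named by rule as higher late came from several families. The rule takes only called genes whose late and early libraries do not overlap. For the genes it names, higher or lower, the lack of overlap was thus fixed by the choice. This holds for per, tim and vri too, which the rule also named. Bomanins are short secreted peptides made on Toll signalling. BomS2 (FBgn0025583) had 99.7, 168 and 233 CPM at its lowest, median and highest early library. Late it had 268, 611 and 381 CPM at 5 h, and 258 and 367 at 6 h. The highest value was repeat B at 5 h, and the groups did not overlap. BomS2 rose by 1.17 ± 0.28 (adjusted p = 0.00303), BomBc2 by 1.17 ± 0.21 (adjusted p = 4.67e-05) and BomS3 by 1.03 ± 0.22 (adjusted p = 0.000904). Without repeat B these were 0.77, 0.95 and 0.73 and none was called. Of 14 Bomanin and Daisho genes, a list drawn up after the values were seen, 6 rose (42.9%, against 3.63% over all genes). None fell and the median was 0.75. The count rested on repeat B, since 0 of the 14 were called without it, and 8 rose without the early libraries of repeat C. Counting could divide reads between close Bomanin copies, so the share of each member is uncertain. Of 14 antimicrobial peptide genes, DptB alone was called (7.14%, against 8.96% over all genes), at -2.17. It had 421 CPM in repeat B at 0.5 h, against 12.1 to 61.8 in the other early libraries and 9.53 to 25.6 late. Without that library its change was -0.56 (adjusted p = 0.652). In that library the mean of the 14 genes was 4.03 log2 CPM, against 1.67 to 3.35 in the other 10.

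Further genes named by the rule rose. The phospholipase A2 gene GIIIspla2 had 13.4 to 18 CPM early and 32.4, 42.4, 35.4, 29.5 and 36.5 CPM late, a rise of 1.07 ± 0.11 (adjusted p = 1.39e-10). The gene shf, which encodes a secreted WIF-domain protein of Hedgehog signalling, had 12.0 to 16.1 CPM early and 29.3, 33.1, 32.1, 26 and 35.2 CPM late. It rose by 1.15 ± 0.17 (adjusted p = 7.84e-07). The neprilysin-like peptidase gene Nepl3 rose by 1.16 ± 0.15, Zaf1 by 1.06 ± 0.15, and comm3, of the commissureless family, by 0.95 ± 0.11. Phs, on the other strand at comm3, was at -0.34 (adjusted p = 0.039). Nepl3 was low, with as few as 16 counts in an early library. CG5966, a predicted lipase gene, rose by 1.37 ± 0.35 (adjusted p = 0.00686), and that call was lost in 3 of the 14 fits that left something out. At 24 h CG5966 had 6.96, 9.21 and 8.37 CPM, below its early range of 16.3 to 49.8. The rise of hll was larger than that of CG5966, 2.08 ± 0.56, but its groups overlapped, and it is named after its values were seen.

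Among the genes that fell, CG3348 had the largest change of those the rule named. CG3348 (FBgn0040609, 3R:27291535-27292209, minus strand) had 25.4, 57.7 and 68.4 CPM at its lowest, median and highest early library. Late it had 9.0, 4.73 and 5.12 CPM at 5 h, and 5.56 and 4.97 at 6 h. All late libraries lay far below all early ones. It fell by 3.17 ± 0.39 (adjusted p = 3.25e-08) and was called in all 14 fits that left something out. At 2 h its mean was already 3.56 log2 CPM, against 5.37 at 1 h, and at 24 h it was 6.02 ± 0.03. It overlaps Hmu on the other strand, and Hmu was not called (0.10). Whether the authors counted by strand is not given in the sources used here, so reads of overlapping genes on both strands may be shared.

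The cathepsin L-like protease gene CtsL3 had 14.4, 18.6 and 28.3 CPM at its lowest, median and highest early library, and 8.33, 7.16, 9.42, 4.17 and 4.65 CPM late. It fell by 1.66 ± 0.27 (adjusted p = 1.42e-05). Jhe, the esterase that inactivates juvenile hormone, had 5.90 to 8.37 CPM early and 2.88, 2.24, 2.00, 2.06 and 2.08 CPM late. It fell by 1.65 ± 0.22 (adjusted p = 1.23e-07), and its lowest late library held 36 counts. CG12116 had 490, 732 and 1028 CPM at its lowest, median and highest early library, and 318, 335, 226, 274 and 173 CPM late. Its change was -1.53 ± 0.23 (adjusted p = 2.24e-06). The early values of repeat C were the highest 2 for this gene, and without them the change was -1.32 (adjusted p = 0.000196).

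The remaining genes of this group changed by -1.17 to -1.81. They were phu at -1.81, asRNA:CR45046 at -1.65, CG9837 at -1.44, CG42329 at -1.25, CG34180 at -1.22, the ABC transporter gene CG17646 at -1.19, the odorant-binding protein gene Obp83ef at -1.19 and Srg1 at -1.17. The antisense transcript asRNA:CR45046 lies over fit, a gene of the fat body of the head, and over CG34148, both on the same strand. The change of fit was -0.996 (adjusted p = 0.00177) at a median of 518 CPM against 31.1 for asRNA:CR45046. That of CG34148 was -0.56 (adjusted p = 0.015) at a median of 12.9 CPM. Which of these genes a read came from is uncertain. CG9837 shares its strand with aqz, which was not called (-0.05). Obp83ef shares bases with Obp83cd on the other strand, which fell by 0.89 (adjusted p = 8.16e-05). Calls of phu, Obp83ef and Srg1 were lost in 2, 3 and 2 of the 14 fits that left something out. At 24 h asRNA:CR45046 had 17.4, 18.4 and 24.4 CPM, below its early range of 31.1 to 63.6. CG42329 had 76.7, 61.4 and 70.7 CPM at 24 h, within its early range of 55.6 to 80.7.

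Enzymes of fatty acid synthesis build fat from acetyl units and are made mainly in fat body and oenocytes. Of 12 genes, 5 fell (41.7%, against 5.33% over all genes) and 1 rose (8.33%, against 3.63%). The riser was the fatty acid transporter gene Fatp1, at 0.17 ± 0.04 (adjusted p = 0.00188). The list's median was -0.13. The fatty acid synthase gene FASN1 had 5612, 7606 and 9408 CPM at its lowest, median and highest early library and 4923, 4714, 4837, 5282 and 4432 CPM late. It fell by 0.68 ± 0.14 (adjusted p = 0.000334). The acetyl-CoA carboxylase gene ACC had 1664 to 2941 CPM early and 1343, 1560, 1438, 1429 and 1377 CPM late, a fall of 0.67 ± 0.11 (adjusted p = 1.56e-05). FASN2 fell by 0.55, AcCoAS by 0.54 and ATPCL, the citrate lyase that makes acetyl-CoA, by 0.53. The regulator gene SREBP was at -0.01 and the desaturase gene Desat1 at 0.01, and neither was called. Without the early libraries of repeat C 4 of the 12 fell, and without repeat B 1 did.

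The mean of the fat body markers changed by -0.90 from early to late in repeat C, 0.00 in repeat B and 0.15 in repeat A. The median change of the fatty acid synthesis genes was -0.31, 0.00 and -0.02 in the same order. FASN1 fell within each repeat, by 0.81 in C, 0.87 in B and 0.31 in A, and ACC by 0.85, 0.63 and 0.45. Of the 6 fat body markers FASN1 is one and was the only one called. The storage protein gene Lsp2 was at -0.02 and the lipophorin gene apolpp at -0.44, and neither was called. The part of fat body RNA in these changes was not tested.

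Genes of sugar and glycerol metabolism were described on a list drawn up after the values were seen. Of 14 genes of the pentose phosphate and glycerol phosphate pathways, 6 fell (42.9%, against 5.33% over all genes) and none rose. The median was -0.37. The glycerol kinase gene Gk2 had 196 to 322 CPM early and 142, 147, 151, 139 and 147 CPM late, with no overlap. It fell by 0.72 ± 0.14 (adjusted p = 0.000341). Gpo1, the mitochondrial glycerol phosphate dehydrogenase gene, fell by 0.62 ± 0.11, the transaldolase gene Taldo by 0.62 ± 0.13 and the 6-phosphogluconate dehydrogenase gene Pgd by 0.57 ± 0.13. The first enzyme of the pentose pathway, encoded by Zw, was at -0.25 and was not called. The median within repeats was -0.19 in A, -0.25 in B and -0.63 in C, and 5 genes fell without the early libraries of repeat C, 4 without repeat B and 3 without repeat C.

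**Figure D3:**
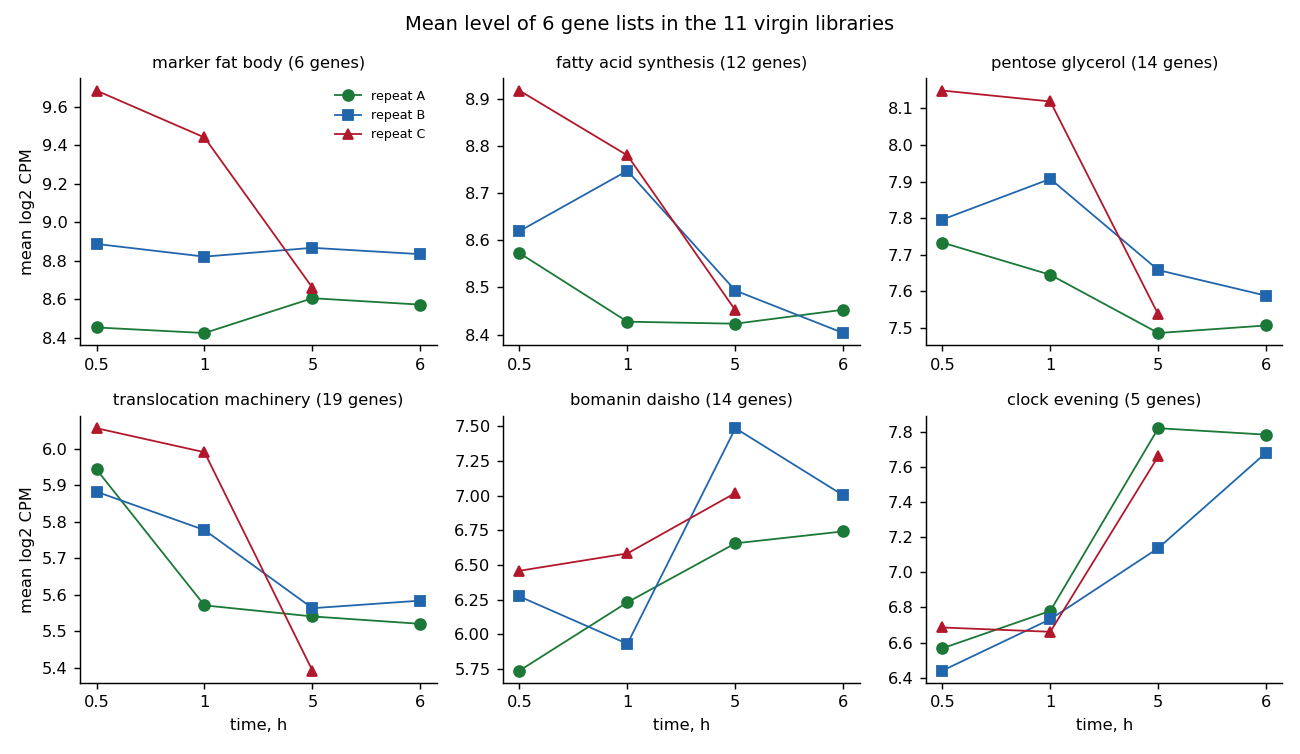
Mean log2 CPM of the members of 6 gene lists (vertical axis) in the 11 virgin libraries by time in h, with a line per repeat. The fat body marker mean is 0.90 lower late in repeat C and 0.15 higher late in repeat A, while the clock list of 5 genes rises in all 3 repeats.

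Several genes of protein entry into the endoplasmic reticulum fell. Nascent secreted proteins are brought there by the signal recognition particle, pass through the Sec61 channel and lose their signal peptide to signal peptidase. On a list of 25 genes of reticulum folding and entry, 6 fell (24%, against 5.33% over all genes) and 1 rose (4%, against 3.63%). The median was -0.06. The channel subunit gene Sec61alpha had 271, 361 and 486 CPM at its lowest, median and highest early library and 257, 237, 212, 236 and 228 CPM late. It fell by 0.70 ± 0.12 (adjusted p = 2.24e-05). Sec61beta fell by 0.51, TRAM by 0.50, Sec61gamma by 0.43, the disulfide isomerase gene Pdi by 0.27 and Edem1 by 0.16. Herp, a gene of the degradation of misfolded proteins, rose by 0.24 ± 0.05 (adjusted p = 0.00018). The chaperone gene Hsc70-3 was at -0.06 and not called. Without the early libraries of repeat C 2 of the 25 fell, and without repeat A, B or C 1 did in each case.

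A second list of 19 entry genes was drawn up after the values were seen. It is not a subset of the 25, and SsRbeta, for one, is not among the 25. Of the 19 genes, 14 fell (73.7%, against 5.33% over all genes) and none rose, with a median of -0.29. SsRbeta, a subunit of the complex at the channel, had 80.4, 114 and 160 CPM at its lowest, median and highest early library. Late it had 73.8, 64.4, 66.2, 69.1 and 71.4 CPM, with no overlap. It fell by 0.76 ± 0.14 (adjusted p = 6.31e-05), and Tapdelta, another subunit of it, by 0.60 ± 0.13. The particle genes Srp14, Srp9, Srp54k, Srp72 and Srp68 were at -0.32, -0.29, -0.29, -0.24 and -0.21. In repeat A the mean of the 19 was 5.94 log2 CPM at 0.5 h but 5.57 at 1 h, close to 5.54 and 5.52 late. In repeat B it was 5.88 and 5.78 early, and in repeat C 6.06 and 5.99, against 5.39 to 5.58 late. The median within repeats was -0.19 in A, -0.21 in B and -0.56 in C. Beside these stand the fat body marker changes of 0.15, 0.00 and -0.90 given above, whose part was not tested. Without the early libraries of repeat C 6 of the 19 fell, and without repeat C 4 did.

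Amine, hormone and stress genes gave mixed counts, read here against the 3.63% of all genes that rose and the 5.33% that fell. On a list of 12 genes of amines and eye pigments, drawn up after the values were seen, 6 fell (50%) and 1 rose (8.33%). CG12116, already named above for its change of -1.53, was among the 6. The tyrosine hydroxylase gene ple, which makes the first step to dopamine, had 153 to 214 CPM early and 86, 97.2, 88.4, 71.7 and 100 CPM late. It fell by 0.97 ± 0.14 (adjusted p = 3.34e-07). The tryptophan dioxygenase gene v fell by 0.86 ± 0.15 (adjusted p = 3.06e-05), while the decarboxylase gene Ddc rose by 0.21. The call of Ddc was lost without the early libraries of repeat C, without any one repeat and with RLE scaling. Of the 12, 5 fell without the early libraries of repeat C and 4 without repeat B. On a list of 11 juvenile hormone genes, also drawn up after the values were seen, 4 fell (36.4%) and none rose. Besides Jhe they were the hormone response gene Kr-h1 at -0.51, JhI-26 at -0.31 and the receptor gene gce at -0.19. Without the early libraries of repeat C 2 of the 11 fell, and the calls of JhI-26 and gce were lost (adjusted p = 0.0574 and 0.0836). Without repeat B the call of Jhe alone held. Of 13 heat shock genes 3 rose (23.1%), with Hsp83, the HSP90 chaperone, at 0.47 ± 0.13 (adjusted p = 0.0116), DnaJ-1 at 0.32 and Hsc70-5 at 0.18. Without the early libraries of repeat C 1 of the 13 rose, and without repeat A none did. Of 9 activity-regulated genes, CG13868 at -0.52 and the nuclear receptor gene Hr38 at -0.38 fell (22.2%) and CG14186 at 0.29 rose (11.1%). The call of CG14186 was lost without the early libraries of repeat C (adjusted p = 0.23) and without any one repeat. That of Hr38 was lost without repeat A and without repeat B (adjusted p = 0.0528 and 0.827).

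Detoxification genes were read against the 3.63% of all genes that rose and the 5.33% that fell. Of 66 cytochrome P450 genes 3 rose (4.55%) and 6 fell (9.09%), and of 29 glutathione S-transferase genes 2 rose and 2 fell (6.9% each). Of 19 UDP-glycosyltransferase genes 1 rose (5.26%) and 5 fell (26.3%), and 3 fell without the early libraries of repeat C. Without repeat A 0 of the P450 genes rose and 3 fell, and without repeat B 1 rose and 3 fell. Cyp4aa1 had 14.3 to 22.5 CPM early and 6.89, 10.1, 9.83, 8.24 and 9.61 CPM late, and it fell by 0.97 ± 0.11 (adjusted p = 1.85e-09). Ugt35E2 fell by 1.18 ± 0.24, GstZ2 fell by 0.67 ± 0.10, and GstD2 rose by 0.90 ± 0.19. Gclm, the modifier subunit of the enzyme that starts glutathione synthesis, rose by 0.59 ± 0.10 (adjusted p = 2.29e-05). It had 65.7 to 79.3 CPM early and 90.4, 93.7, 90.5, 105 and 140 CPM late.

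Other lists were also read against the 8.96% of all genes that were called. Of 84 cytosolic ribosome genes 0 were called, with a median of -0.07. Of 31 proteasome genes 0 were called, with a median of 0.05, and of 16 synaptic release genes 0 were called, with a median of 0.03. Without the early libraries of repeat C 3 proteasome genes rose, and without the whole of repeat C 9 did. The proteasome median within repeats was 0.10 in A, 0.23 in B and -0.16 in C. Of 63 nuclear genes of oxidative phosphorylation 3 fell (4.76%, against 5.33% over all genes), the largest of them ATPsynbeta at -0.24. Of these calls 1 held without the early libraries of repeat C. Of 25 ion channel genes the potassium channel gene Irk1 rose, by 0.63 (4% of the list, against 3.63% over all genes), a call lost without repeat A. Of 24 neuropeptide genes Tk, the tachykinin gene, rose by 0.33 (4.17% of the list, against 3.63% over all genes). The call of Tk was lost without the early libraries of repeat C (adjusted p = 0.0574), without repeat B and without repeat C. Of 33 tRNA synthetase genes 1 rose and 3 fell (12.1% called), and without the early libraries of repeat C 1 fell and none rose. Of 42 translation factor genes 3 fell (7.14%), of 71 mitochondrial ribosome genes 1 rose and 2 fell (4.23% called), and of 13 ribosome biogenesis genes 0 were called, with a median of 0.13. A gene that missed the threshold is not shown to be unchanged.

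**Figure D4:**
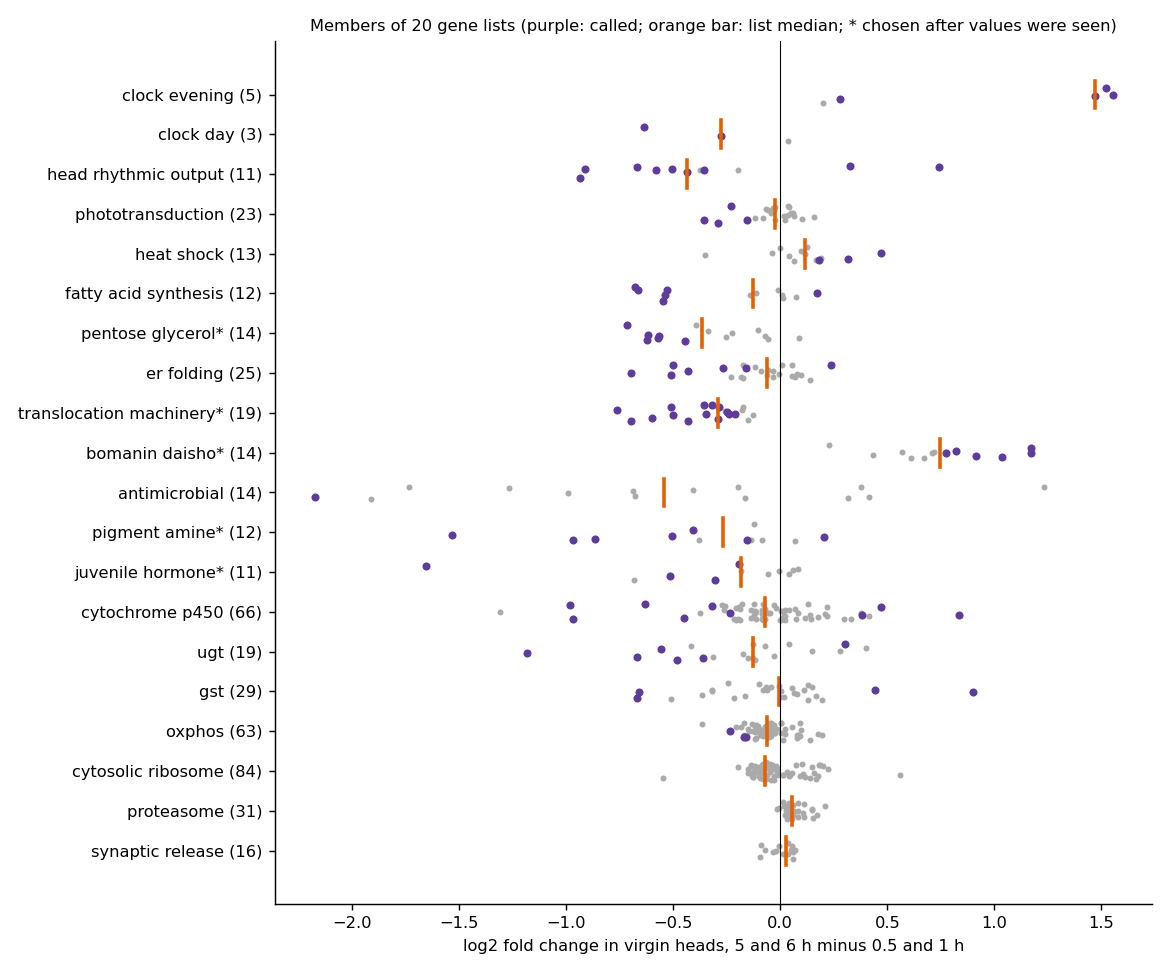
Log2 fold change in virgin heads (horizontal axis) of each tested member of 20 gene lists (rows, with the number of genes), with called genes in purple and the list median as an orange bar. Lists marked with a star were drawn up after the values were seen, and the evening clock list has its median at 1.47.

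The same contrast was fitted in the mated females, whose libraries are not shared with the virgins, with 12 libraries in each treatment. SP-null-mated females had 1265 called genes (14%), 732 higher (8.11%) and 533 lower (5.91%). Wildtype-mated females had 1945 (21.6%), 1237 higher (13.7%) and 708 lower (7.85%). The virgin calls and the SP-null-mated calls had 331 genes in common with the same sign, which was 40.9% of the 809 and 26.2% of the 1265. With wildtype-mated females they had 355 in common, 43.9% of the 809 and 18.3% of the 1945. Of the 328 higher genes 304 were also above 0 in SP-null-mated and 299 in wildtype-mated females. Of the 481 lower genes 377 and 342 were also below 0. Over all tested genes 58.7% and 57% had the same sign.

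The change itself differed between virgin and SP-null-mated females for 184 genes (2.04%), and between virgin and wildtype-mated females for 598 (6.63%). In the first the virgin change was lower for 139 genes (1.54%) and higher for 45 (0.499%). In the second it was lower for 486 (5.39%) and higher for 112 (1.24%). Without repeat B these counts were 30 and 44. Both tests share the virgin libraries, so they are not independent of each other.

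The clock genes were set side by side in the 3 treatments. The change of per was 1.55 ± 0.17 in virgins, 1.45 ± 0.16 in SP-null-mated and 1.43 ± 0.16 in wildtype-mated females. That of tim was 1.52, 1.44 and 1.45, and that of vri 1.47, 1.66 and 1.67. None of these differences was called. The exception was cwo, at 0.20 in virgins and -0.32 in SP-null-mated females, with a difference of 0.52 ± 0.14 (adjusted p = 0.0231). Of the 12 genes named as higher, 10 were called the same way in SP-null-mated and 11 in wildtype-mated females. For GIIIspla2 the rise was larger in virgins than in wildtype-mated females, by 0.64 ± 0.15 (adjusted p = 0.00404).

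Of the 12 genes named as lower, 6 were called the same way in SP-null-mated and 5 in wildtype-mated females. The change differed for 4 of them from that in SP-null-mated and for 8 from that in wildtype-mated females. CG3348 was at -3.17 in virgins, -1.28 in SP-null-mated and 0.77 in wildtype-mated females. The difference was -1.90 ± 0.51 from the first (adjusted p = 0.0278) and -3.94 ± 0.49 from the second (adjusted p = 6.08e-07). CtsL3 was at -1.66 in virgins, 0.01 in SP-null-mated and 0.09 in wildtype-mated females, with differences of -1.67 ± 0.36 (adjusted p = 0.00466) and -1.75 ± 0.35 (adjusted p = 0.00078). Jhe was at -1.65 in virgins, -1.63 in SP-null-mated and -0.45 in wildtype-mated females, and its change differed from the last (adjusted p = 0.00374). CG34180 and CG17646 fell in all 3 treatments.

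**Figure D5:**
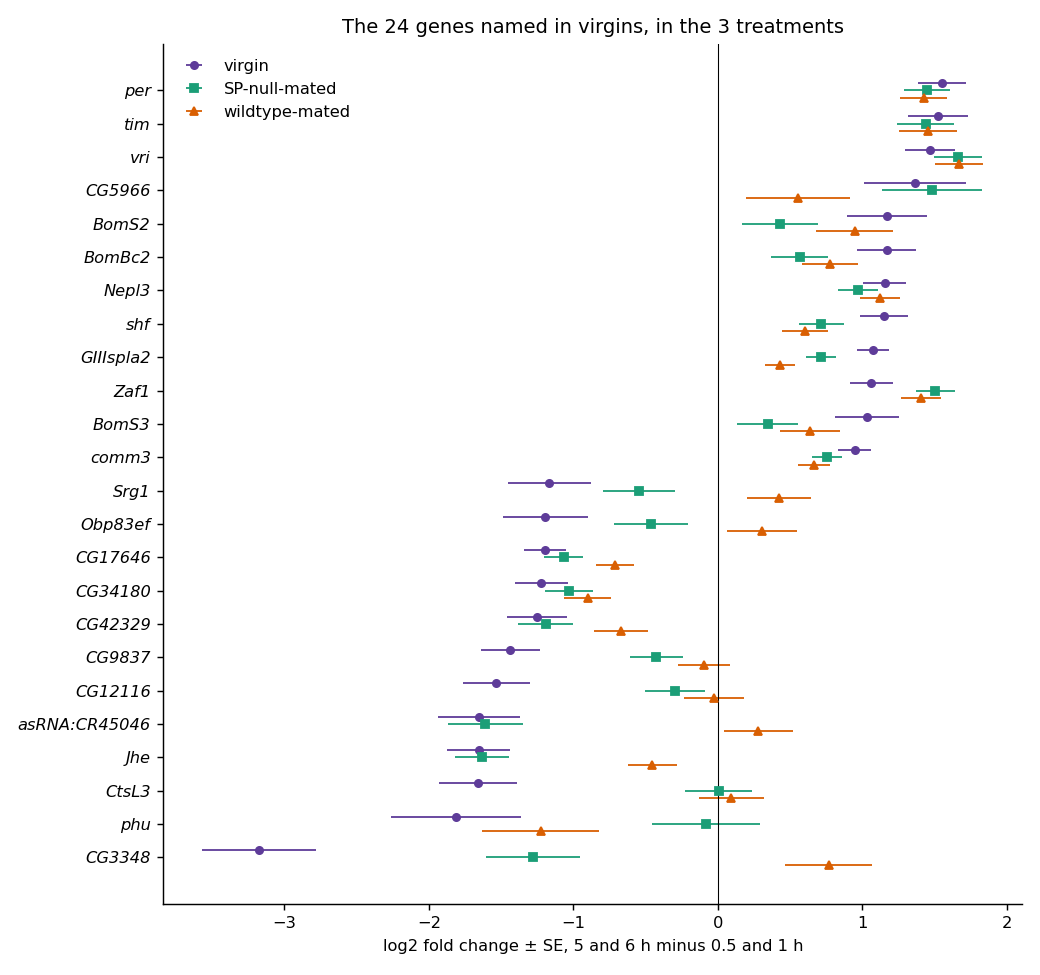
Log2 fold change ± SE (horizontal axis, late minus early) of the 24 genes named by rule in virgin, SP-null-mated and wildtype-mated females. The clock genes per, tim and vri lie between 1.43 and 1.67 in all treatments, whereas CG3348 runs from -3.17 in virgins to 0.77 in wildtype-mated females.

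Some genes of secretory entry also differed. In virgins the median change of the second entry list was -0.19 in repeat A, -0.21 in B and -0.56 in C. The tests of difference were not refitted without the early libraries of repeat C. The change of Sec61alpha was -0.70 in virgins, -0.05 in SP-null-mated and 0.11 in wildtype-mated females, with differences of -0.65 ± 0.16 (adjusted p = 0.0158) and -0.81 ± 0.16 (adjusted p = 0.000624). TRAM was at -0.50 in virgins and rose by 0.43 and 0.79 in the mated females, with differences of -0.93 (adjusted p = 0.00397) and -1.29 (adjusted p = 1.43e-05). Of the 25 genes of reticulum folding and entry, 3 differed from SP-null-mated females and 8 from wildtype-mated females with the virgin change lower, and 1 with it higher. In the wildtype-mated females 10 of the 25 rose and none fell. Over all genes 13.7% rose and 7.85% fell in wildtype-mated females, and 5.91% fell in SP-null-mated females. The virgin change was lower for 1.54% of all genes than in SP-null-mated and for 5.39% than in wildtype-mated females. It was higher than in wildtype-mated females for 1.24%. Of the 13 ribosome biogenesis genes 12 rose in wildtype-mated females, and for 9 the virgin change was lower. Of 63 oxidative phosphorylation genes 33 fell in wildtype-mated females and 3 in virgins, and for 0 was the difference called. Of the 12 fatty acid synthesis genes 0 differed by either test, and 3 of the 12 fell in SP-null-mated and 4 in wildtype-mated females.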

How the data were processed

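Heads were profiled by poly(A) RNA sequencing, and the table deposited by the authors holds raw counts for each gene. Reads were handled with Trimmomatic 0.39, STAR 2.7.5a, HTSeq 0.11.2 and edgeR on dm6 or BDGP6, per the submitters' processing notes, which give no roles. Gene positions are from the Ensembl annotation of BDGP6. Of 90 samples, 87 had counts that were used. The tests used edgeR 4.0.16 under R 4.3.3. Low genes were removed by filterByExpr given all 30 groups, with 10 as its count minimum and 15 as its total, which left 9024 of 9027. Scaling was by TMM, and robust quasi-likelihood fits had 1 mean per group over all 87 libraries. The contrast is the mean of the 5 and 6 h groups minus that of the 0.5 and 1 h groups. Log2 CPM used a prior count of 2. The steps were also run on simulated counts drawn without a repeat effect, so that run does not cover shifts between repeats. In the groups compared, the chi-square per degree of freedom between libraries was at least 13.3, so none was counted as a repeat deposit. Alternatives were RLE, DESeq2 1.42.0, no filter, other fits and left-out libraries.

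The repeat letters pair the libraries, since the study description says the series was repeated. Same-repeat libraries deviated from group means with a median correlation of 0.102 (15 pairs, -0.104 to 0.417), and different repeats with -0.0283 (30 pairs).

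Members and lists were chosen with earlier results of these data known. Named by rule were the 12 largest changes in each direction among called genes with a mean of at least 1 log2 CPM and no overlap, the core clock genes, and up to 4 called genes per list. Other genes were named after their values were seen, and so were 5 lists. No mitochondrially encoded gene was used here, so the planned mitochondrial share is not given. The exon table was not used.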

Additional observations from a re-analysis of the deposited data

Results flagged for a closer look

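Of 84 groups of 5 or 6 virgin libraries checked for a library that stands apart, 7 (8.33%) held one, where chance gives about 1 in 20. Among the late libraries, repeat B at 5 h was the low one for tim (7.47 log2 CPM), Nepl3 (1.63 log2 CPM) and asRNA:CR45046 (3.43 log2 CPM). Repeat A at 5 h was the high library for CG3348 (3.18 log2 CPM). Repeat C at 0.5 h was high for CG9837 (6.22 log2 CPM), repeat B at 6 h low for Srg1 (0.34 log2 CPM), and repeat A at 6 h high for the mean of the oenocyte markers (2.14 log2 CPM).

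Some changes differed between virgins and mated females by a test of the difference. In the comparison with SP-null-mated females the differences (virgin minus mated change, log2) were -1.90 for CG3348, -1.67 for CtsL3, -1.24 for CG12116, -1.01 for CG9837 and 0.52 for cwo. In the comparison with wildtype-mated females they were 0.64 for GIIIspla2, -3.94 for CG3348, -1.75 for CtsL3, -1.20 for Jhe and -1.93 for asRNA:CR45046. There they were also -1.50 for CG12116, -1.34 for CG9837, -1.50 for Obp83ef and -1.59 for Srg1. Both sets use the same virgin libraries.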

How the results depend on the processing

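The 809 calls became 805 with RLE, 801 with DESeq2 and 572 in a fit of the 11 libraries as 2 groups. With the replicate block there were 897 calls, 802 of them shared, and no named gene gained or lost its call. They became 392 with 5 h alone, 366 with 6 h alone and 276 against 1 h alone. Of 103 named genes, 48 had a weaker result against 1 h alone and 11 against 0.5 h alone. With 5 h alone 31 were weaker, and with 6 h alone 40. Leaving out a repeat gave 209 to 515 calls, and leaving out 1 library 402 to 768. Leaving out a repeat gave 570 to 845 for SP-null-mated, 1058 to 1550 for wildtype-mated, 30 to 54 for the difference from SP-null-mated and 44 to 426 for that from wildtype-mated females. The block gave 1 call between 1 and 0.5 h, and DESeq2 gave 1 between 6 and 5 h. The change of cyc, not called in any fit, turned to -0.0277 with 5 h alone, and ran from -0.0374 to 0.0754 when a repeat or library was left out, with -0.00304 without the 1 h library of repeat A. The cause of these shifts was not tested. Total counts limit counting error only, and with 5 against 6 libraries each repeat weighs heavily.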
